A study of Mus musculus with 35 samples.

Results

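The transcripts described here are 10 genes of the regulators of G protein signalling, taken by symbol from the 22099 genes in the striatal count table: *Rgs2*, *Rgs4*, *Rgs7*, *Rgs7bp*, *Rgs8*, *Rgs9*, *Rgs10*, *Rgs14*, *Rgs16* and *Rgs20*. All 10 were listed and passed the filter on low counts, as did 17639 genes in all. RNA was sequenced from the striatum of 35 female mice on a C57BL/6J background, aged 299 to 304 days at sacrifice, with 1 library per mouse. HttQ111/+ mice carry 1 copy of the mouse huntingtin gene with an expanded CAG tract knocked into the endogenous locus, so that the mutant allele is present in every tissue, and Htt+/+ littermates were the controls. Among Htt+/+ mice, 6 had received saline, 5 a control ASO and 6 the Htt ASO, and each of these treatments had been given to 6 HttQ111/+ mice. An ASO is an antisense oligonucleotide, here either one against *Htt* or one without that target. Injections were intraperitoneal and weekly from 2 to 10 months of age, at 50 mg/kg for either ASO and 4 µL/g for saline. The study asked whether lowering huntingtin outside the brain alters striatal signs of disease in HttQ111/+ mice.

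RGS proteins speed the hydrolysis of GTP by the alpha subunits of heterotrimeric G proteins and so shorten signalling from G protein-coupled receptors. Medium spiny neurons, the projection neurons that make up most of the striatum, integrate dopamine, adenosine, acetylcholine, opioid and cannabinoid signals through such receptors, and several RGS proteins are enriched in them. The family is grouped by sequence. The R7 proteins (RGS6, RGS7, RGS9 and RGS11) work in a complex with the G beta 5 subunit and with the membrane anchor R7BP, the product of *Rgs7bp*, which has no RGS domain of its own. The R4 proteins (RGS2, RGS4, RGS8 and RGS16 among the members) are small and consist of little more than the RGS domain, the R12 proteins include RGS10 and RGS14, and the RZ proteins include RGS20.

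Total expected counts per mouse ranged from 32200158 to 38641924. Values below are CPM, expected counts scaled to a common library size after TMM scaling, and log2 differences and adjusted p come from limma after voom over all 17639 genes unless another tool is named. Nothing in the labels says how litters were divided among groups, so the p-values measure the spread between these mice. The *Htt* transcript, listed under its older symbol *Hdh*, ranged from 66.6 to 104 CPM in the 17 Htt+/+ and from 60.9 to 93.1 CPM in the 18 HttQ111/+ mice, a log2 difference of −0.23 (adjusted p = 0.00100). With Htt ASO relative to control ASO it differed by −0.077 over both genotypes (95% confidence interval −0.22 to 0.062) and did not pass the test. The paper reported that the Htt ASO lowered huntingtin protein in liver and adipose tissue and had no effect on its level in the striatum. As a check of the tissue, the 8 cortical excitatory neuron markers summed to 122 to 189 CPM in Htt+/+ and 135 to 208 CPM in HttQ111/+ mice, where 2 of the 8 were called higher and none lower, while *Ppp1r1b* (DARPP-32) of medium spiny neurons alone averaged 1664 and 1186 CPM. By genotype, 39.8% of all tested genes were called in either direction. A single Htt+/+ mouse on control ASO stood apart in *Ttr*, a choroid plexus transcript, with 1457 CPM against at most 110.9 CPM in the others, and 1 Htt+/+ mouse on Htt ASO was sampled from the left rather than the right hemistriatum. The number after the letter L in the sample titles was read as the sequencing lane, which the labels do not state. By this reading the libraries lay in 6 lanes, of which 1 held only HttQ111/+ mice (n = 6).

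Genotype lowered most of these transcripts. Over treatments, 7 of the 10 were lower in HttQ111/+ than in Htt+/+ mice and none was higher, against 18% of all tested genes called lower and 39.8% called in either direction. The largest difference was in *Rgs14*, at 54.4% of its Htt+/+ level, followed by *Rgs4* (68.3%), *Rgs9* (69.7%), *Rgs7bp* (76.3%), *Rgs20* (79.9%), *Rgs10* (88.6%) and *Rgs7* (92.8%). The median log2 difference was −0.25 over the 10 and 0.0037 over all tested genes. The 10 were chosen with earlier results of these data known, so these contrasts with all genes only describe them. Of the 9 other RGS genes tested, 5 were lower and 2 higher. In *Rgs14*, *Rgs4*, *Rgs9* and *Rgs7bp* every HttQ111/+ mouse lay below every Htt+/+ mouse, a separation shared by 2.21% of tested genes. *Rgs2*, *Rgs8* and *Rgs16*, all of the R4 group, did not pass the test. Fewer cells of a type and less RNA per cell cannot be told apart in RNA of whole striatum: of 12 medium spiny neuron markers, 9 were lower and 2 higher in HttQ111/+ mice, and their summed level was 7583 to 9569 CPM in Htt+/+ and 5213 to 6312 CPM in HttQ111/+ mice. Oligodendrocyte markers were lower in 3 of 7 (summed 9038 to 12087 against 8631 to 10536 CPM), astrocyte markers in 2 of 7 (941 to 1083 against 927 to 1023 CPM), and interneuron markers in 2 of 8 (234 to 270 against 215 to 251 CPM), with Htt+/+ mice given first. In the same order, endothelial and pericyte markers were lower in 5 of 7 (234 to 345 against 211 to 246 CPM) and choroid plexus markers in 1 of 5 (33.8 to 1545 against 26.7 to 131.0 CPM), and no marker of these lists was higher. The part of these markers in the differences of the RGS genes was not tested.

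**Figure D1:**
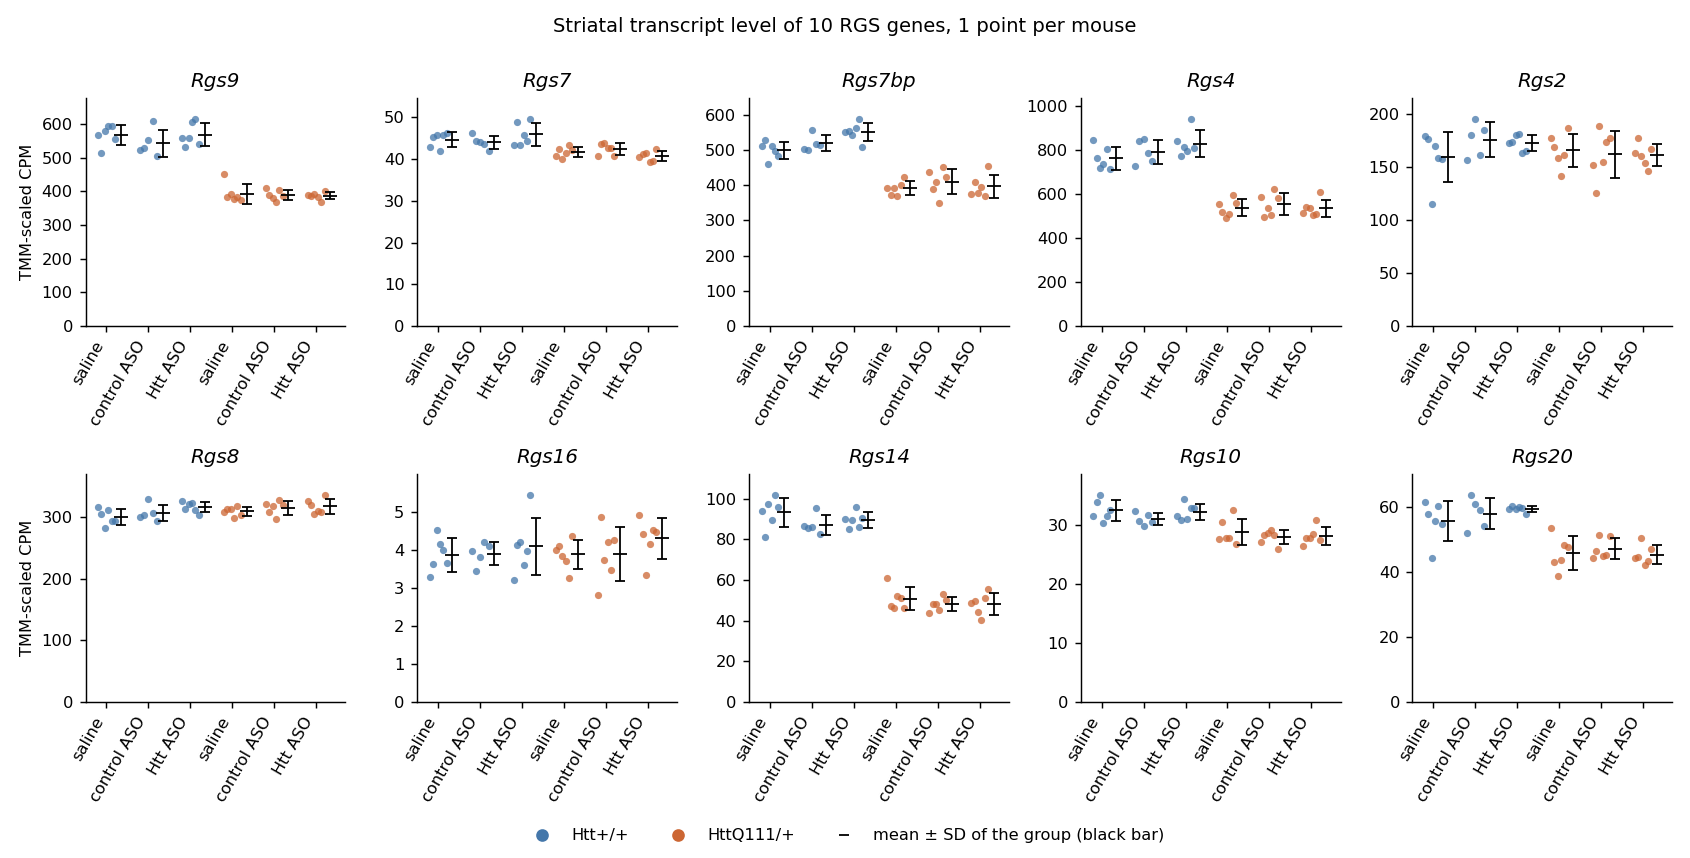
TMM-scaled CPM (vertical axis, from 0) of each of the 10 genes in each mouse, by treatment (horizontal axis), with Htt+/+ mice in blue and HttQ111/+ mice in orange and black bars for the group mean ± SD (n = 6, or 5 for Htt+/+ on control ASO). The genotypes do not overlap in *Rgs9*, *Rgs7bp*, *Rgs4* and *Rgs14*, overlap in part in *Rgs7*, *Rgs10* and *Rgs20*, and overlap throughout in *Rgs2*, *Rgs8* and *Rgs16*.

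The sequence upstream of a gene's start carries its core promoter. The 250 bases before the start are shown here for 3 genes that were lower without overlap and for *Rgs2*, which did not pass the test. They were chosen because they differ in their matches to short motifs. They are RefSeq sequences on GRCm38.p6, all from the minus strand and written in the direction of transcription. Capitals mark matches, on either strand, to the cyclic AMP response element half-site TGACG, the GC box GGGCGG and the TATA box TATAAA, none of which overlap in these windows.
*Rgs4* (chr1:169747643-169747892): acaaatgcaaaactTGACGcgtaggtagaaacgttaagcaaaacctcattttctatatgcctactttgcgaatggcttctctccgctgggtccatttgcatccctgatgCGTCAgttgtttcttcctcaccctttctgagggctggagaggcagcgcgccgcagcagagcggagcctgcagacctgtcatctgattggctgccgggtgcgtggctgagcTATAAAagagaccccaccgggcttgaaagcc
*Rgs9* (chr11:109298182-109298431): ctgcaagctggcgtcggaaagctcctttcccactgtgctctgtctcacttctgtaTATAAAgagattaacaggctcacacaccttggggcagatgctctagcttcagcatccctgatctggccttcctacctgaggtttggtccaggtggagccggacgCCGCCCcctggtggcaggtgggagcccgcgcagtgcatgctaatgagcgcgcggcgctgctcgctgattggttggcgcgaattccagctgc
*Rgs7bp* (chr13:105054931-105055180): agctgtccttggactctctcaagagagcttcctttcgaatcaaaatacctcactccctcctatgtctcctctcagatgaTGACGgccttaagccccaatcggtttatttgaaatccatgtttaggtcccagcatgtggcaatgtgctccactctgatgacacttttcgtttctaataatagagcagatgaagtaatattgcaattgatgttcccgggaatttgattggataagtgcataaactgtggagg
*Rgs2* (chr1:144004150-144004399): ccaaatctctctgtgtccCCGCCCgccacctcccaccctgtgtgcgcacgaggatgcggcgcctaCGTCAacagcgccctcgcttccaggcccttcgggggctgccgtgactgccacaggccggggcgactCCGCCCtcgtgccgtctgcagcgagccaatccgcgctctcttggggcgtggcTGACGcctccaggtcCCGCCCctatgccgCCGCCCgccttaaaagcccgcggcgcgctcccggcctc
*Rgs4* has a match to the TATA box 31 bases before the start and 2 half-sites. *Rgs9* has a match to the TATA box letters farther off, 195 bases before the start, and 1 GC box. *Rgs7bp* has 1 half-site, and *Rgs2* 4 GC boxes and 2 half-sites. GC content was 53.6%, 59.6%, 43.2% and 72.4% in that order. Of the 8 members with a RefSeq promoter sequence (10 windows, 3 of them for *Rgs8*), *Rgs8* has 1 half-site in 1 of its windows, *Rgs10* and *Rgs16* have 2 GC boxes each, and *Rgs7* has none of these motifs. Over 32851 mouse promoters of the same length, 17.8% hold the half-site, 32.7% the GC box and 12.4% the TATA box. The full element TGACGTCA is in 1.55% of promoters and in no member's window. The remaining genes are *Rgs14* and *Rgs20*. Whether any match acts as a promoter element was not tested.

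Transcripts for the catalytic protein of the R7 complex, its G beta subunit and its anchor all fell. *Rgs9*, which encodes the R7 protein most enriched in striatum and known to limit dopamine D2 and opioid receptor signalling, had values of 514, 574 and 596 CPM (lowest, median and highest) in Htt+/+ mice on saline. Those on control ASO had 504, 524, 530, 553 and 609 CPM, and those on Htt ASO 532, 560 and 616 CPM. HttQ111/+ mice had 374, 383 and 453 CPM on saline, 369, 389 and 411 CPM on control ASO, and 369, 389 and 401 CPM on Htt ASO. The highest HttQ111/+ mouse, on saline, stood below the lowest Htt+/+ mouse, which was on control ASO. The log2 difference over treatments was −0.52 (standard error 0.027, adjusted p = 5.55e-17).

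*Rgs7bp*, whose product holds R7 complexes at the plasma membrane, had 459, 505 and 528 CPM on saline and 507, 553 and 588 CPM on Htt ASO in Htt+/+ mice, with 501, 501, 515, 518 and 557 CPM on control ASO. In HttQ111/+ mice the values were 368, 392 and 423 CPM on saline, 350, 416 and 451 CPM on control ASO, and 368, 386 and 454 CPM on Htt ASO. The genotypes were separated narrowly, by a highest HttQ111/+ value of 454 CPM and a lowest Htt+/+ value of 459 CPM. They overlapped when CPM were taken on library totals alone, leaving 3 members without overlap. The share of 2.21% of tested genes is for TMM-scaled CPM, and none was computed on library totals. The difference between genotypes was −0.39 (standard error 0.030, adjusted p = 1.03e-12). *Rgs7*, a more widely expressed R7 protein, differed least of the 7: it ranged from 41.8 to 49.6 CPM in Htt+/+ and from 39.2 to 43.9 CPM in HttQ111/+ mice (log2 difference −0.11, standard error 0.020, adjusted p = 4.15e-05). None of the 18 HttQ111/+ mice exceeded the Htt+/+ median of *Rgs7*.

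The other R7 genes and partners were measured in the same mice. *Gnb5*, which encodes G beta 5, had means of 302 ± 15.5 CPM in the 17 Htt+/+ mice and 239 ± 10.8 CPM in the 18 HttQ111/+ mice (SD), with no overlap (lowest 274, highest 257) and a log2 difference of −0.33 (adjusted p = 1.57e-13). *Gpr158*, an orphan receptor that recruits R7 proteins to the membrane, differed by −0.25 (386 ± 23.7 against 326 ± 23.2 CPM, adjusted p = 3.64e-08). The related receptor *Gpr179* was at 0.675 and 0.661 CPM and did not pass the test (0.017, adjusted p = 0.945), and *Rgs9bp*, the anchor of RGS9 in photoreceptors, fell under the filter with a mean of 4.74 counts. *Rgs11* differed by −0.43 (52.7 ± 5.03 against 38.9 ± 2.61 CPM, adjusted p = 5.75e-11) and *Rgs6* by −0.11 (adjusted p = 0.0213). All 4 R7 genes were thus lower, as were 18% of all tested genes. The table has a second row, spelled RGS9 in capitals, that held 5.41% to 15.2% of the counts of both rows (median 8.94%). It differed by −0.83 (standard error 0.15, adjusted p = 2.36e-05), and the difference of *Rgs9* with both rows summed was −0.55 (adjusted p = 1.19e-15).

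Within the R4 group the members divided. *Rgs4*, an inhibitor of Gi/o and Gq signalling that takes part in striatal synaptic plasticity, was the most abundant of the 10 and the only R4 member that fell. In Htt+/+ mice it had 713, 751 and 845 CPM on saline, 726, 749, 789, 841 and 850 CPM on control ASO, and 774, 813 and 942 CPM on Htt ASO. HttQ111/+ mice had 493, 538 and 596 CPM on saline, 498, 560 and 624 CPM on control ASO, and 504, 524 and 609 CPM on Htt ASO. The lowest Htt+/+ mouse (713 CPM) exceeded the highest HttQ111/+ mouse (624 CPM), and the log2 difference was −0.55 (standard error 0.034, adjusted p = 6.13e-15).

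*Rgs8*, a Gi/o regulator known from Purkinje cells and striatum, had close means, 308 ± 12.9 CPM for the 17 Htt+/+ mice and 314 ± 10.4 CPM for the 18 HttQ111/+ mice (SD). Its confidence interval was narrow, from −0.0068 to 0.066 on the log2 scale (adjusted p = 0.195), but with library totals, which move the median of all genes by 0.039, it was called higher (0.068, adjusted p = 0.000844). *Rgs2*, a regulator with a preference for Gq whose transcript is inducible by neuronal activity, was 169 ± 17.5 and 163 ± 16.1 CPM (log2 difference −0.054, 95% confidence interval −0.16 to 0.049, adjusted p = 0.425). Of 12 activity-dependent genes, 5 were lower and none higher in HttQ111/+ mice, against 18% of all tested genes called lower. Their sums were 551 to 1186 CPM in Htt+/+ and 480 to 898 CPM in HttQ111/+ mice, and their part in the values of *Rgs2* was not tested. *Rgs16*, another Gi/o and Gq regulator, was low, at 101 to 194 counts per mouse, and its levels of 3.96 ± 0.525 and 4.03 ± 0.561 CPM allow a log2 difference of −0.12 to 0.15 (adjusted p = 0.866).

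*Rgs14* of the R12 group joins an RGS domain to Ras-binding domains and a second site that binds inactive Gi alpha, and is best known from hippocampal area CA2. It showed the largest change of the 10. Htt+/+ mice had 81.0, 94.8 and 102 CPM on saline, 82.5, 85.5, 86.0, 86.4 and 95.4 CPM on control ASO, and 85.1, 89.7 and 96.0 CPM on Htt ASO. HttQ111/+ mice had 46.3, 49.4 and 61.2 CPM on saline, 43.6, 48.2 and 53.0 CPM on control ASO, and 40.5, 49.2 and 55.5 CPM on Htt ASO. The genotypes were thus separated by an interval from 61.2 to 81.0 CPM without mice, and the log2 difference was −0.88 (standard error 0.038, adjusted p = 7.03e-19).

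*Rgs10*, a small R12 protein that is abundant in microglia as well as neurons, ranged from 29.9 to 35.2 CPM in Htt+/+ and from 26.0 to 32.5 CPM in HttQ111/+ mice, of which 15 of 18 lay below the lowest Htt+/+ mouse (log2 difference −0.18, standard error 0.025, adjusted p = 8.09e-07). Of 8 microglia markers, 5 were lower and none higher in HttQ111/+ mice, against 18% of all tested genes called lower. Their summed level was 402 to 477 CPM in Htt+/+ and 362 to 443 CPM in HttQ111/+ mice. The paper, which counted stained microglia in sections, reported no effect of genotype on their density in the dorsolateral striatum. The part of these markers in the difference of *Rgs10* was not tested. *Rgs20*, an RZ protein that acts on Gz and Gi, ranged from 44.3 to 63.7 CPM and from 38.7 to 53.6 CPM (log2 difference −0.32, standard error 0.039, adjusted p = 3.32e-08). None of the HttQ111/+ mice exceeded the Htt+/+ median of *Rgs20*, and 15 of 17 Htt+/+ mice exceeded the highest HttQ111/+ mouse.

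Compared per length, the order of the levels was broad. Per kilobase of exon (GENCODE M21 on GRCm38, matched by symbol), Htt+/+ mice had 257 ± 19.2 CPM of *Rgs4*, 87.8 ± 5.42 of *Rgs9*, 73.9 ± 4.60 of *Rgs7bp*, 46.6 ± 4.84 of *Rgs2*, 31.9 ± 1.34 of *Rgs8*, 21.3 ± 1.37 of *Rgs14*, 18.7 ± 0.865 of *Rgs10*, 13.6 ± 1.06 of *Rgs20*, 7.46 ± 0.357 of *Rgs7* and 1.69 ± 0.224 of *Rgs16* (SD, n = 17). Neighbours in this order were farther apart than the SD of either. In HttQ111/+ mice *Rgs14* lay at 11.6 ± 1.12 CPM per kilobase (SD, n = 18), below *Rgs10* at 16.6 ± 0.946 and within 1 SD of *Rgs20* at 10.9 ± 0.885. With the longest transcript as the length, *Rgs14*, *Rgs10* and *Rgs8* lay within the spread between mice in Htt+/+ mice (37.9 ± 2.43, 36.4 ± 1.68 and 36.3 ± 1.52 CPM per kilobase).

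Differences by genotype were present under each treatment, in separate mice. Of the members, 7 were lower on saline, where 8.78% of tested genes were, 6 with control ASO (8.46%) and 7 with Htt ASO (10.2%), with none higher among them. *Rgs14* differed by −0.88 on saline, by −0.86 with control ASO and by −0.90 with Htt ASO. *Rgs9* differed by −0.53, −0.48 and −0.55, *Rgs4* by −0.50, −0.51 and −0.63, and *Rgs7bp* by −0.35, −0.34 and −0.48, in the same order. *Rgs20* differed by −0.28, −0.29 and −0.39 and *Rgs10* by −0.18, −0.15 and −0.20. *Rgs7* was the exception: it differed by −0.098 on saline (adjusted p = 0.0421), by −0.055 on control ASO (adjusted p = 0.309) and by −0.17 on Htt ASO (adjusted p = 0.000283). The saline call of *Rgs7* was the weakest, and 6 alternative analyses and the omission of any of 9 single mice ended it. Without the mouse of highest *Ttr*, the adjusted p of *Rgs10* on control ASO rose from 0.0161 to 0.0501. All 7 members called over treatments were lower within all 5 lanes, as read from the titles, that held both genotypes. The range was −1.10 to −0.80 for *Rgs14*, −0.63 to −0.34 for *Rgs4*, −0.58 to −0.49 for *Rgs9*, −0.42 to −0.25 for *Rgs7bp* and −0.14 to −0.026 for *Rgs7*.

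**Figure D2:**
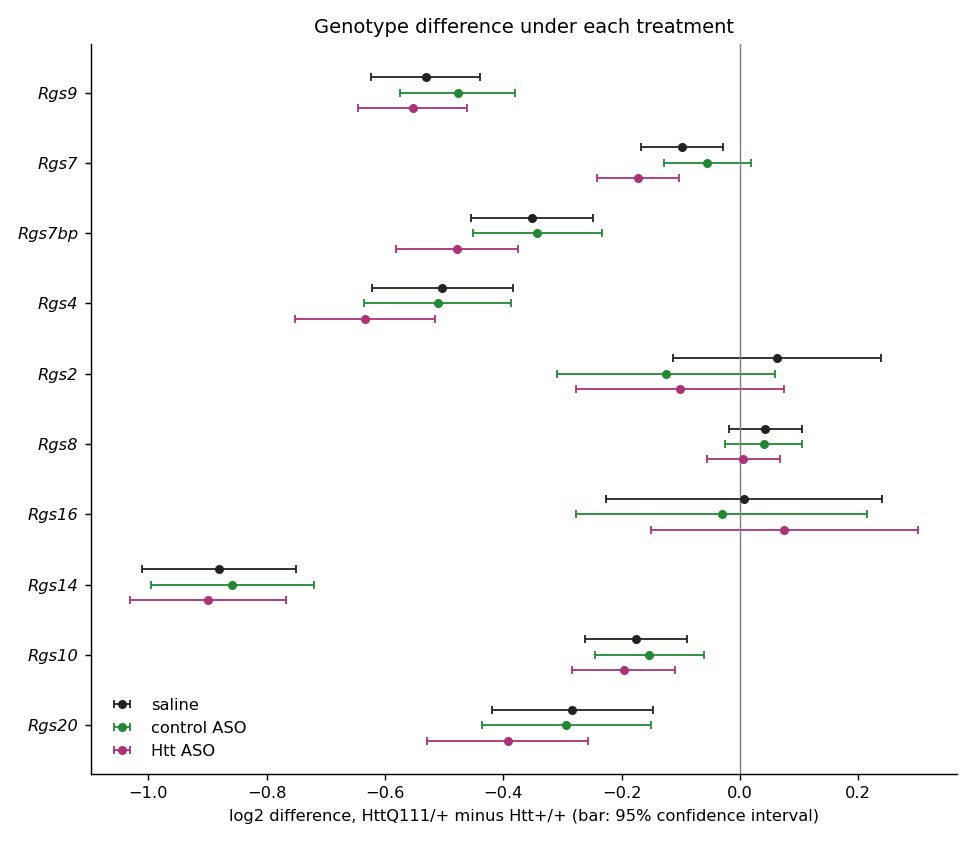
Log2 difference between HttQ111/+ and Htt+/+ mice (horizontal axis) for each of the 10 genes (vertical axis) on saline (black), control ASO (green) and Htt ASO (purple), with 95% confidence intervals from limma. The intervals of *Rgs9*, *Rgs7bp*, *Rgs4*, *Rgs14*, *Rgs10* and *Rgs20* lie below 0 under all 3 treatments, and those of *Rgs2*, *Rgs8* and *Rgs16* cross 0.

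Treatment did not shift these transcripts past the test. Htt ASO against control ASO compares the targeted with the untargeted oligonucleotide. For it, limma called none of the 10 over both genotypes (0.935% of tested genes), in HttQ111/+ mice (0.357%) or in Htt+/+ mice (0.295%). No member had an unadjusted p under 0.05 in these, against 1140, 1135 and 916 of all genes in the same order. In HttQ111/+ mice the log2 difference was −0.003 for *Rgs14* (95% confidence interval −0.14 to 0.13), −0.010 for *Rgs9* (−0.10 to 0.082), −0.052 for *Rgs4* (−0.17 to 0.067) and −0.049 for *Rgs7bp* (−0.15 to 0.055). For *Rgs7* the interval was −0.13 to 0.012. For Htt ASO against saline, which uses the same Htt ASO mice, none was called over both genotypes (1.47% of tested genes), in HttQ111/+ mice (0.556%) or in Htt+/+ mice (0.726%). At an unadjusted p under 0.05 in limma there were 2 over both genotypes, *Rgs7bp* (0.080, adjusted p = 0.471) and *Rgs8* (0.0565, adjusted p = 0.323). Of all genes, 1652 were under it in that comparison. In HttQ111/+ mice no member was under it, and the median log2 difference of the 10 was −0.015. In Htt+/+ mice there were 3, against 1859 of all genes. Their median log2 difference in Htt+/+ mice was 0.072 over the 10 members and −0.0044 over all genes. There *Rgs7bp* was 499 ± 24.8 CPM on saline (SD, n = 6) and 551 ± 26.4 CPM on Htt ASO (SD, n = 6), a log2 difference of 0.14 (adjusted p = 0.309 by limma). For control ASO against saline, none of the 10 and 0% of all genes were called over both genotypes or in either by limma (1357 of all genes at an unadjusted p under 0.05 over both), and no member had an unadjusted p under 0.05. EdgeR and DESeq2 likewise called none of the 10 in any of these 9 comparisons, where they called at most 243 and 288 of all genes.

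**Figure D3:**
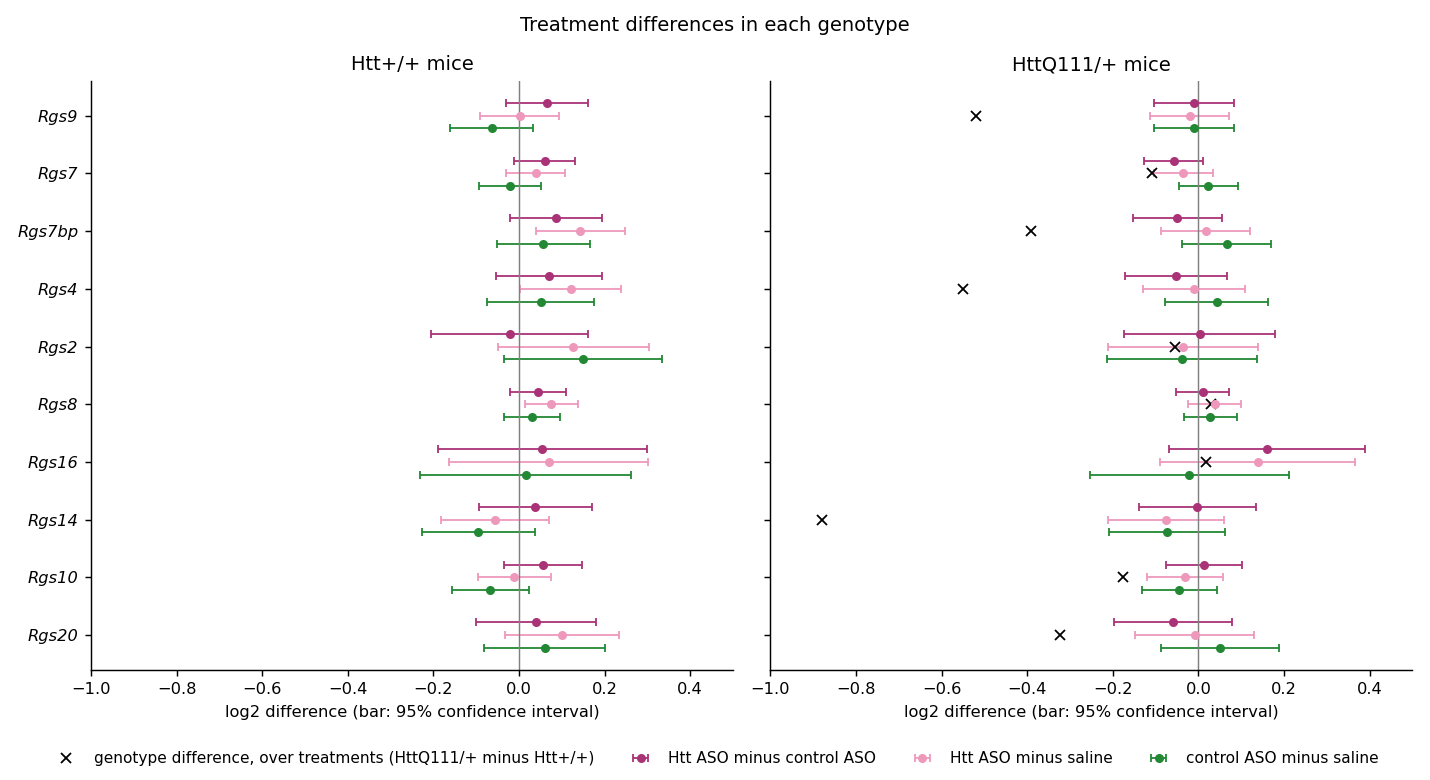
Log2 difference between treatments (horizontal axis) for each gene (vertical axis) in Htt+/+ (left) and HttQ111/+ mice (right), for Htt ASO minus control ASO (purple), Htt ASO minus saline (pink) and control ASO minus saline (green), with 95% confidence intervals from limma, and crosses on the right for the genotype difference over treatments. The intervals in HttQ111/+ mice include 0 for all 10 genes, while the crosses of *Rgs14*, *Rgs4*, *Rgs9*, *Rgs7bp*, *Rgs20* and *Rgs10* lie outside them.

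No test of whether the genotype difference depended on treatment passed the threshold. In limma's tests of interaction, none of the 10 and 0% of all genes were called for any of the 3 pairs of treatments. At an unadjusted p under 0.05 there were 713, 973 and 1169 of all genes. EdgeR and DESeq2 called none of the 10, and they called 0 and at most 1 of all genes per pair. A single member had an unadjusted p under 0.05 in limma: *Rgs7*, whose genotype difference was 0.12 lower on Htt ASO than on control ASO (log2 interaction −0.12, 95% confidence interval −0.22 to −0.017, adjusted p = 0.999). The interactions of *Rgs7bp* and *Rgs4* in this comparison were −0.14 (−0.29 to 0.014) and −0.12 (−0.30 to 0.049).

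Mice of one group also differed from each other, and some members varied together. With group means removed from log2 CPM, 8 of 45 pairs were correlated over the 35 mice after adjustment over the 45 (100000 permutations of mice within groups, two-sided), all of them positively. The share of correlated pairs among other genes was not computed, so whether the members vary together more than other genes is not known. The highest was *Rgs4* with *Rgs7bp* (Pearson's r = 0.71, adjusted p = 0.00112; Spearman's rho = 0.67, adjusted p = 0.00405), followed by *Rgs7bp* with *Rgs8* (r = 0.69, adjusted p = 0.00112; rho = 0.68, adjusted p = 0.00315). Without the 2 mice farthest from the median of the first gene, r was 0.64 and 0.60. *Rgs2* varied with *Rgs20* (r = 0.62), *Rgs8* (0.56) and *Rgs7bp* (0.52), and *Rgs4* with *Rgs8* (0.54) and *Rgs20* (0.52). Without the Htt+/+ mouse of lowest *Rgs2*, r of *Rgs2* was 0.45 with *Rgs20*, 0.46 with *Rgs8* and 0.46 with *Rgs7bp*. With lane means also removed, all 8 pairs had an adjusted p under 0.05, and with library totals 6 did, without *Rgs2* with *Rgs7bp* (r = 0.49) and *Rgs4* with *Rgs8* (r = 0.43). *Rgs9* and *Rgs14* were correlated by Pearson's r (0.54, adjusted p = 0.0148) and not by Spearman's rho (0.42, adjusted p = 0.0718), and r was 0.35 without the 2 farthest mice.

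**Figure D4:**
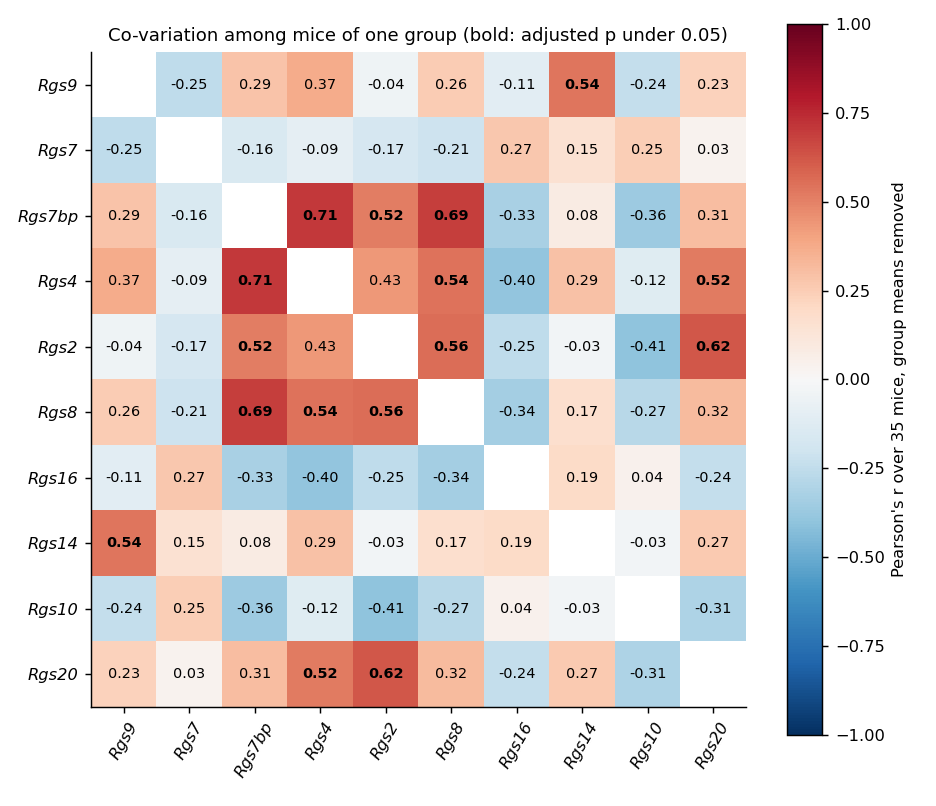
Pearson's r between each pair of the 10 genes over 35 mice, after the mean of each group was removed from log2 CPM (colour scale from −1, blue, to 1, red; bold for an adjusted p under 0.05 over 45 pairs). *Rgs7bp*, *Rgs4*, *Rgs2*, *Rgs8* and *Rgs20* hold all bold pairs except *Rgs9* with *Rgs14*.

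The rest of the family and of the pathway was not uniformly lower. Of the 9 other RGS genes tested, 5 were lower and 2 higher in HttQ111/+ mice, with a median log2 difference of −0.11. Over all tested genes, 18% were called lower and 39.8% in either direction, and the counts that follow stand against the same shares. By subfamily, with members included, 4 of 4 R7 genes and 3 of 3 R12 genes were lower, 2 of 3 RZ genes were lower and 1 higher, and of 8 R4 genes 2 were lower, 1 was higher and 5 did not pass the test. One of the higher genes was *Rgs19*, an RZ gene, at 8.49 ± 0.793 and 12.5 ± 1.32 CPM (log2 difference 0.56, adjusted p = 2.99e-11), with no overlap between genotypes. The other was the R4 gene *Rgs13*, near the limit of detection in Htt+/+ mice (0.159 ± 0.0631 CPM) and at 0.560 ± 0.0845 CPM in HttQ111/+ mice (1.80). With a mean of 13.1 counts per mouse against a minimum of 10 in the filter, *Rgs13* probably entered the test only through the HttQ111/+ mice. Its call is therefore not independent of the filter. In the RZ group *Rgs19* and *Rgs20* therefore differed by genotype in opposite directions. Among the others, *Rgs5*, a gene of pericytes, was lower (log2 difference −0.24, adjusted p = 5.05e-07). The part of the endothelial and pericyte markers in its difference was not tested.

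Of the G alpha subunits on which RGS proteins act, 3 genes of the Gi/o/z class were slightly higher: *Gnai1* by 0.16, *Gnai2* by 0.081 and *Gnaz* by 0.074. *Gnao1*, at 815 CPM in Htt+/+ mice the most abundant of the class, was lower (−0.13), and *Gnai3* did not pass the test. The summed level of the class was 1089 to 1204 CPM in Htt+/+ (median 1167) and 1015 to 1176 CPM in HttQ111/+ mice (median 1108). In the Gq family *Gna11* was higher by 0.055 and 3 others did not pass. *Gnal*, which encodes the Golf alpha subunit that couples striatal dopamine D1 and adenosine receptors to adenylyl cyclase and is no substrate of most RGS proteins, was lower (−0.17, adjusted p = 1.44e-08). Of 13 G beta and gamma genes other than *Gnb5*, 7 were higher and 2 lower. Their summed level was 2482 to 2830 CPM in Htt+/+ (median 2704) and 2414 to 2704 CPM in HttQ111/+ mice (median 2591). The smallest adjusted p were those of *Gng3* (60.1 ± 3.49 against 87.9 ± 5.46 CPM, log2 difference 0.55, adjusted p = 1.01e-16), *Gng4* (14.1 ± 1.17 against 21.2 ± 1.41 CPM, 0.59, adjusted p = 2.09e-14) and *Gnb4* (0.20, adjusted p = 6.66e-06). *Gng3* and *Gng4* did not overlap between genotypes. Of 14 striatal receptors that signal through these G proteins, 10 were lower, 1 higher and 3 did not pass, with a median of −0.37. These counts stand against 18% of all tested genes called lower by genotype and 39.8% called in either direction.

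**Figure D5:**
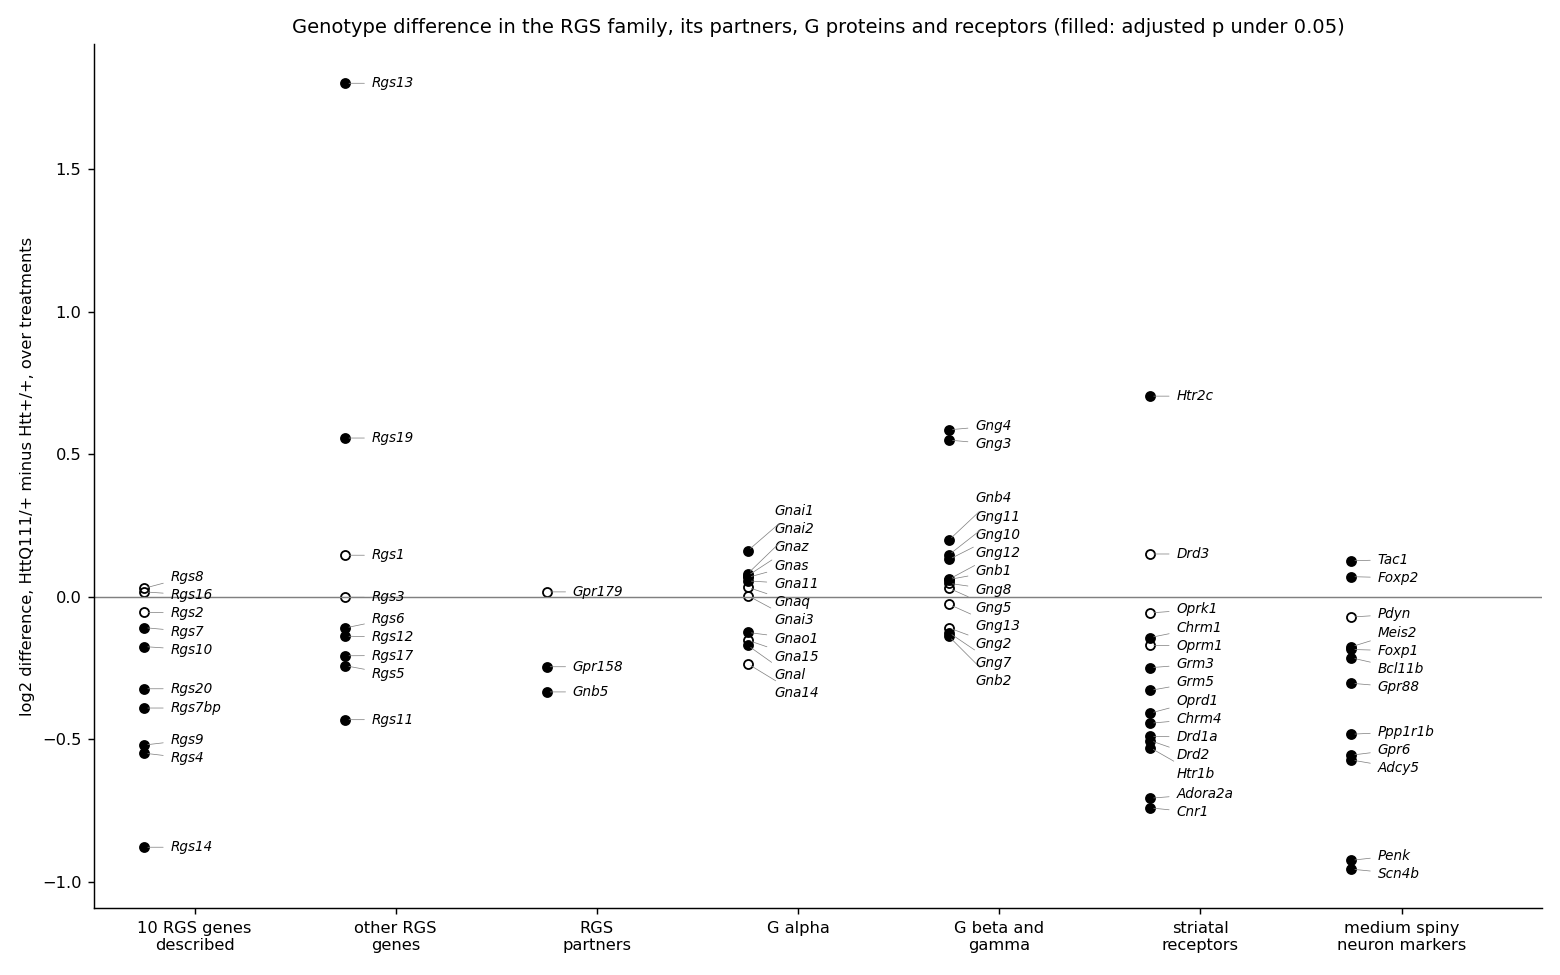
Log2 difference between HttQ111/+ and Htt+/+ mice over treatments (vertical axis) for each tested gene of the lists named on the horizontal axis, with filled points for an adjusted p under 0.05 and open points otherwise (*Drd1a* is the older symbol of *Drd1*). The RGS members and receptors lie mostly below 0, the G alpha genes within 0.24 of 0, and *Gng3*, *Gng4*, *Rgs19*, *Rgs13* and *Htr2c* stand above 0.5.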

How the data were processed

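The authors prepared stranded poly(A) libraries (TruSeq Stranded mRNA), mapped read pairs with Bowtie 0.12.9 to transcripts of the MGSCv37 mouse assembly and quantified genes with RSEM 1.1.18, per the paper's methods and the submitters' processing notes. They deposited unscaled expected counts for every gene in each mouse. RSEM divides reads that match several transcripts, so that rows of similar sequence, such as Rgs9 and RGS9, may share reads; whether it was run with strand is not given in the sources used here. The treatment named ASO1 in the labels was taken as Htt ASO, and the letter L with a number in the titles as the lane.

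From these counts, genes were filtered with filterByExpr (minimum count 10, minimum total 15), scaled by TMM and tested with limma 3.58.1 after voom (edgeR 4.0.16, R 4.3.3) in a model with a mean for each of 6 groups (29 residual degrees of freedom), with Benjamini-Hochberg adjustment over 17639 genes and a threshold of 0.05. CPM are counts over the TMM-scaled library size, and a prior count of 2 was added for log2 CPM in correlations and lanes. Calls on rounded counts were also made with DESeq2 1.42.0 and, by quasi-likelihood, with edgeR. The 10 genes and all gene lists were chosen with earlier results of these data known. All 10 are described; of other genes, every tested RGS partner, every called G alpha subunit and the 3 genes of smallest adjusted p among other RGS and among G beta and gamma genes were named, and Rgs5, Rgs6, Htr2c, Ppp1r1b and the summed RGS9 row were named after their values were seen. Marker lists are given as counts and summed levels. Promoters came from RefSeq, lengths from GENCODE M21. The code was tested on simulated data. No 2 mice of a group agreed within sampling noise (chi-square over degrees of freedom between 3.52 and 16.0 in 85 pairs).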

Additional observations from a re-analysis of the deposited data

Results flagged for a closer look

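In 3 of 60 sets of mice (10 genes in 6 groups), 1 mouse lay far from the others of its group by Dixon's ratio, which chance gives in about 1 of 20 groups, and that is the share seen here. In Htt+/+ mice on saline, *Rgs2* was 116 CPM in 1 mouse against 157 to 180 CPM in the other 5. The summed level of the 12 activity-dependent genes was also lowest of its group in that mouse, at 551 CPM against 925 to 1186 CPM. In HttQ111/+ mice on saline, *Rgs9* was 453 CPM in 1 mouse against 374 to 391 CPM in the others, and in HttQ111/+ mice on Htt ASO, *Rgs4* was 609 CPM in 1 mouse against 504 to 543 CPM. Both mice had the highest summed level of medium spiny neuron markers of their groups, 6238 and 6232 CPM. They were also highest of their groups in cortical excitatory neuron markers, at 181 and 182 CPM. The mouse of high *Rgs9* was highest in oligodendrocyte markers too (10536 CPM), and the mouse of high *Rgs4* was not (9117 CPM). Neither was highest of its group in the other cell type lists. The part of these markers in the values was not tested. Without the mouse concerned, the log2 difference by genotype over treatments was −0.53 for *Rgs9* and −0.56 for *Rgs4*, both called, and −0.084 for *Rgs2*, not called.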

How the results depend on the processing

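The number of the 10 genes called was recomputed under 12 other settings and with each of the 35 mice left out. Over treatments it was 7 to 8 under the settings and 7 whichever mouse was left out, on saline 6 to 7 in both, on control ASO 5 to 6 in both, and on Htt ASO 7 throughout. No comparison of treatments and no interaction called any of the 10 under these alternatives, and no called gene changed direction. The log2 difference over treatments stayed between −0.91 and −0.84 for *Rgs14*, −0.56 and −0.51 for *Rgs4*, −0.55 and −0.48 for *Rgs9* and −0.40 and −0.35 for *Rgs7bp* under the settings. Library totals raised the share of called genes that were higher from 54.7% to 72.1%, and under them *Rgs8* was called higher over treatments (0.068) and on saline (0.081, adjusted p = 0.0356). *Rgs7* on saline lost its call with library totals, no filter, lane as a covariate, quality weights, without the lane of HttQ111/+ mice only, and with only the groups compared (adjusted p = 0.0589 to 0.238), and without any of 9 mice of the compared groups (0.0530 to 0.0997). The causes were not tested. The settings with the RGS9 row summed and without the mouse of highest *Ttr* were chosen after seeing the data. Correlated pairs numbered 6 with library totals and 9 with lane means removed. *Rgs16* had the fewest counts of the 10, a mean of 142 per mouse, and the widest spread within groups (SD 0.199 on the log2 scale). No paired analysis was possible because the labels give the mice no replicate numbers and do not say what the letter codes in the titles mean. Lane as a covariate, the only blocking factor fitted, left the count over treatments at 7.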
